A study of Homo sapiens with 4 samples.

Results

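The histone genes on these arrays were read by 106 of the 41000 different probes, for 78 of the 30982 different gene names. They were chosen by name, as the non-control probes whose gene name starts with HIST1H to HIST4H, H2AF, H3F3 or H1F, and the choice was the same in the files of all 4 arrays. Names that start with HIST were taken as replication-dependent histones, with 83 probes for 65 genes, and the others as variant histones, with 23 probes for 13 genes. All 78 genes were matched to a current RefSeq symbol, so that HIST1H4C, for example, is H4C3 today. Some HIST names, such as HIST1H1T, HIST1H2BA and HIST3H3, belong to genes known for expression in testis, and they stay in the first group because the name alone decided.

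HCT116 is an established human colon cancer cell line. A first group of 2 arrays carried RNA of N-BLR shRNA clone #3-1 and a second group of 2 arrays carried RNA of N-BLR shRNA clone #4-7, each a single stable clone, and every array also carried RNA of HCT116 cells with the empty vector. N-BLR is a long non-coding RNA, and the comparison asks how gene expression differs when it is targeted. The labels speak of lentivirus and the methods of lipid transfection with G418 selection, so the sources differ on how the clones were made. The labels assign Cy5 to the clone and Cy3 to the empty vector on every array, no array has the dyes exchanged, and the methods name no dye, so every direction rests on the labels. A log2 ratio is the log2 of clone over empty vector, and 1 on this scale is a 2-fold difference. By the labels the E-cadherin gene CDH1 gave -2.61 and -2.59 on the arrays of clone #3-1 and -1.37 and -1.32 on those of clone #4-7. This direction is the opposite of the one the study gives for E-cadherin in these clones. From these arrays, and also by qRT-PCR and immunofluorescence, the study reports E-cadherin as higher and vimentin as lower in both clones. The labels and the study are thus in conflict, and the direction of the ratios is not settled. With the dyes the other way, every log2 ratio below would change sign and keep its size.

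Histones H2A, H2B, H3 and H4 form the core around which DNA is wrapped, and the linker histone H1 binds the DNA that enters and leaves it. Replication-dependent histone genes lie in clusters, are transcribed mainly while DNA is being replicated, and give messages that end in a stem-loop in place of a poly(A) tail. Variant histones are encoded elsewhere. Most are made throughout the cell cycle from polyadenylated messages, and those of the core types replace core histones at particular sites. A few cluster genes, among them HIST1H1C, HIST1H2BK, HIST2H2BE and HIST2H2AA3, are also known to give polyadenylated messages.

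The genes of a histone type code for nearly the same protein, so what a probe can tell apart depends on where it lies. The stretches shown next come from probes of 5 H4 genes, at the point where the shared end of the coding sequence, in capitals with the first base of the stop codon, gives way to sequence of each gene's own.
HIST1H4B: GGCTTCGGCGGTTaatcttttcgtcagttt
HIST1H4C: GGCTTCGGCGGCTgaatctaagaatacgcg
HIST1H4D: GGCTTCGGCGGCTgagcttacctctacagt
HIST1H4J: GGTTTCGGTGGTTgagcgtccctttctatc
HIST1H4L: GGCTTTGGCGGCTgagtgttttacttactt
After the stop codon these stretches share little, while the HIST1H4K probe holds the same 30 bases as the HIST1H4J probe and shares a run of 37 bases with it in all.

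The stem-loop itself is shown because it marks the end of the message. Its core, CTTTTNAG, was found on either strand in 615 of the 41000 probes, or 1.5%, and in 5 of the 106 histone probes, or 4.72%. With the bases on each side that complete the stem (capitals), it was found in 2 probes of the 41000, and both are histone probes.
HIST2H2AA3: ctcaaaaGGCTCTTTTCAGAGCCacccacg
HIST1H4K: ctatcaacaaaaGGCCCTTTTTAGGGCCcc
The first lies in A_23_P103981, at chr1:146636178-146636234 of build hg17, and the second in A_23_P30813, at chr6:27906933-27906992. These 2 probes read the end of a message that can lack a poly(A) tail, and they gave opposite results in clone #3-1, as described with their genes. How the RNA was primed for labelling is not given in the sources used here, and its part in the values was not tested.

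Both channels were well above background on all 4 arrays for 89 histone probes, 68 replication-dependent and 21 variant ones, and no histone probe was saturated. Over all probe spots, 68.5% to 71.8% were well above background in Cy3 and 71.5% to 72.6% in Cy5. Between the 2 arrays of a clone, log2 ratios differed by 0.0545 (clone #3-1) and 0.0527 (clone #4-7) at the median of all probes. The labels call these arrays biological replicates, nothing says that they came from separate cultures, and the p-values then measure only the spread between these arrays. The control is 1 sample whose own spread is left out of the test, and the arrays of each clone lie side by side on 1 slide, so clone and place on the slide cannot be told apart. Epithelial markers of colon were read (4 KRT18 probes, both KRT8 probes and CDX2 were well above background on all arrays, and E-cadherin too), the markers VIL1 and CDX1 were not, and the defining markers of endothelium, PECAM1 and CDH5, were not well above background on any. Of the 13 colon epithelium probes, none rose and 7 fell in clone #3-1, with a median of -0.26, and 1 rose and 7 fell in clone #4-7, with a median of -0.36. The falls are 53.8% of these probes in each clone. Of all probes, 16.3% rose and 16.4% fell in clone #3-1, and 16.1% rose and 15.0% fell in clone #4-7. Besides CDH1, TACSTD1 fell to -1.04 and -0.44 and one KRT8 probe to -0.69 and -0.90, while KRT19 fell to -0.80 in clone #3-1 and rose to 0.36 in clone #4-7. The part of these differences in the histone values was not tested. No probe is named N-BLR, so the targeted RNA itself was not read.

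In clone #3-1 the replication-dependent histones of types H2A, H3 and H4 were higher than in the empty vector cells, with medians of 0.64, 0.74 and 0.95 on the log2 scale, while most H2B probes lay near 0. In clone #4-7 the medians of H2A, H3 and H4 were -0.11, 0.02 and 0.05, with single probes from -0.95 for HIST2H2AA3 to 0.99 for HIST1H4C, and H4 was the type with the most probes that rose. At the threshold of the methods, an unadjusted limma p under 0.001, 46 of the 83 replication-dependent probes rose in clone #3-1 (55.4%), where 16.3% of all probes rose, and 5 fell (6.02%), where 16.4% of all probes fell. In clone #4-7, 8 rose (9.64%) against 16.1% of all probes and 16 fell (19.3%) against 15.0%. With the dyes the other way these counts would read 5 higher and 46 lower in clone #3-1 and 16 higher and 8 lower in clone #4-7. The counts of clone #4-7 rest on small log2 ratios, with 5 and 4 higher and 9 and 7 lower without its array 1 and its array 2, and with 2 to 19 higher under other processing. The median log2 ratio of the 83 probes was 0.51 in clone #3-1 and -0.02 in clone #4-7, and that of all probes was 0.01 in both. Over the 68 probes well above background throughout, these medians were 0.66 and -0.02. At least 2-fold differences past the threshold were seen for 21 of the 83 probes upward and 2 downward in clone #3-1, where 0.822% and 1.3% of all probes were that far up and down. In clone #4-7 none was that far up and 1 was that far down, where the shares of all probes were 0.498% and 1.21%.

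**Figure D1:**
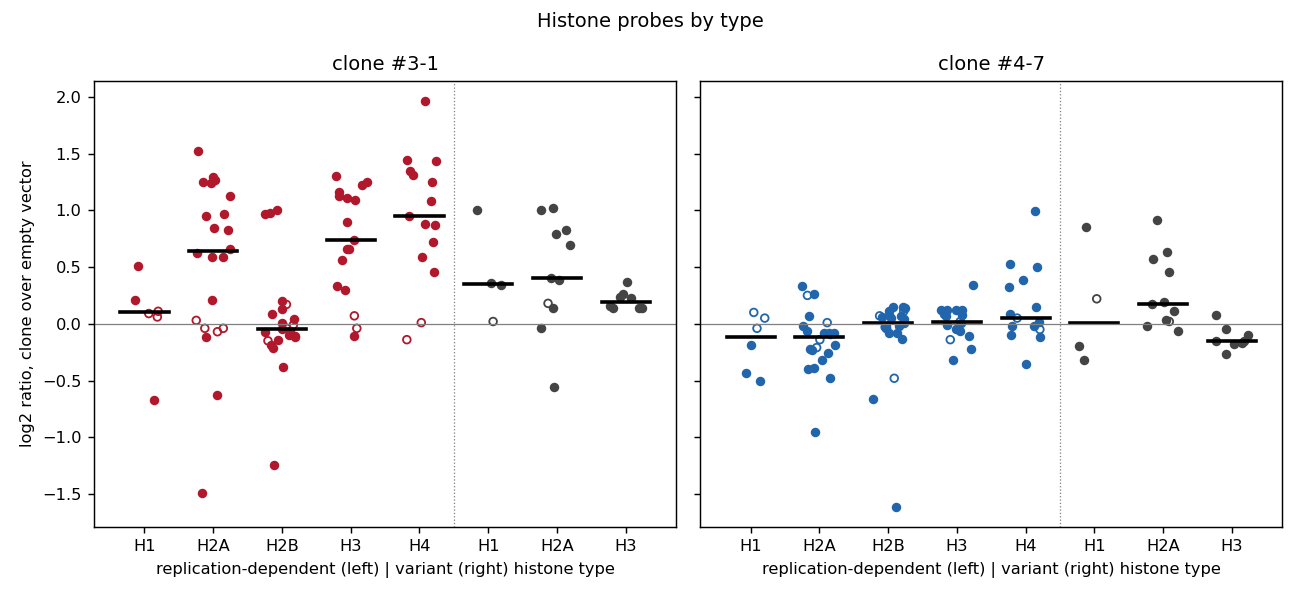
Each point is a histone probe, placed by type (x axis) and by its log2 ratio of clone over empty vector (y axis, mean of 2 arrays), with replication-dependent histones left of the dotted line and variants, in grey, right of it. Filled points were well above background in both channels on all 4 arrays, open points were not, and black bars are medians; in clone #3-1 the bars of H2A, H3 and H4 lie at 0.64, 0.74 and 0.95 and that of H2B at -0.05.

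H4 forms with H3 the central tetramer of the core particle, and it was the type with the highest median, 0.95 over 15 probes in clone #3-1. All 13 of its probes that were well above background throughout rose there, between 0.46 and 1.96, and none fell. Of all probes well above background throughout, 24.1% rose in clone #3-1. HIST1H4C was the highest histone probe of both clones. Its log2 ratios were 1.94 and 1.99 on the arrays of clone #3-1 and 0.96 and 1.01 on those of clone #4-7, all above 0, with the clones not overlapping. The means were 1.96 ± 0.03 (SD, n = 2) and 0.99 ± 0.04 (SD, n = 2), with limma adjusted p of 8.1e-06 and 3.0e-05.

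4 other H4 genes rose in both clones. HIST1H4L gave 1.39 and 1.49 in clone #3-1 and 0.53 on both arrays of clone #4-7. HIST1H4B gave 1.36 and 1.34, then 0.42 and 0.37. HIST1H4D gave 1.28 and 1.34, then 0.51 and 0.50. In each the values of clone #4-7 were lower than those of clone #3-1 but above 0. The single gene of the HIST4 group, HIST4H4, gave smaller values of 0.45 and 0.47, then 0.25 and 0.39, and its clones lay closer together than those of the other H4 genes that rose in both, with a difference of 0.14 (limma adjusted p = 0.11).

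The other H4 genes that were well above background throughout rose in clone #3-1 alone. HIST1H4A gave 1.41 and 1.46 there and -0.13 and -0.08 in clone #4-7, and its difference of 1.53 between the clones was the largest of any histone probe. HIST1H4E gave 1.29 and 1.20 against -0.01 and -0.04. HIST1H4H gave 1.13 and 1.02 against 0.15 on both arrays of clone #4-7. HIST2H4A, HIST1H4F and HIST1H4I followed at means of 0.95, 0.88 and 0.87, with means of 0.09, -0.02 and 0.02 in clone #4-7. HIST1H4J and HIST1H4K, whose probes share most of their sequence, gave 0.72 and 0.59 in clone #3-1 and -0.35 and -0.12 in clone #4-7, where the fall of HIST1H4J passed the threshold (limma adjusted p = 3.1e-04). HIST1H4G, which gave -0.16 and -0.11 in clone #3-1 and missed the threshold, was not well above background in either channel in clone #4-7, and the second HIST4H4 probe, 1944 bases from the first, was not well above background in Cy3.

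H3, the partner of H4 in the tetramer and the histone best known for its modified tail, had a median of 0.74 over 17 probes in clone #3-1, where 14 rose and none fell, and of 0.02 in clone #4-7, where 1 rose and 2 fell. The rises in clone #3-1 are 82.4%, against 16.3% of all probes. In clone #4-7, 5.88% were higher and 11.8% lower, against 16.1% and 15.0% of all probes. HIST1H3B led with 1.31 and 1.29 on the arrays of clone #3-1 and 0.11 and 0.14 on those of clone #4-7. A second HIST1H3B probe, which overlaps the first by 47 bases, gave 1.17 and 1.06, then 0.19 and 0.06. HIST1H3F gave 1.26 and 1.25, then -0.07 and -0.05. In these the clones were well apart and clone #4-7 did not pass the threshold.

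HIST1H3D, read by 2 probes that overlap by 20 bases, gave means of 1.22 and 1.16 in clone #3-1 and -0.11 and -0.22 in clone #4-7, the second a fall past the threshold (limma adjusted p = 0.0022). HIST1H3H gave 1.13 and 1.05 on the arrays of clone #3-1 and 0.09 and 0.15 on those of clone #4-7. HIST1H3J was the H3 gene that rose in both clones, with 1.18 and 1.08, then 0.35 and 0.33 (limma adjusted p = 9.2e-04 in clone #4-7). HIST1H3E, HIST1H3G, both HIST2H3A probes and HIST2H3PS2 rose in clone #3-1 alone, at means of 0.90, 0.74, 0.66, 0.56 and 0.66. HIST1H3C and HIST3H3 rose less, to 0.30 and 0.33.

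HIST1H3A did not follow the other H3 genes. It gave -0.06 and -0.15 in clone #3-1, which missed the threshold (limma adjusted p = 0.053), and -0.35 and -0.29 in clone #4-7, where it fell (limma adjusted p = 0.0011). HIST1H3I gave -0.07 and -0.01 in clone #3-1 and -0.09 and -0.19 in clone #4-7, and missed the threshold in both. It was well above background on 3 of the 4 arrays in each channel.

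H2A pairs with H2B to close the core particle on both faces. Its 22 replication-dependent probes had a median of 0.64 in clone #3-1, with 14 higher and 2 lower, and of -0.11 in clone #4-7, with 2 higher and 8 lower. In shares, 63.6% were higher and 9.09% lower in clone #3-1, against 16.3% and 16.4% of all probes. In clone #4-7, 9.09% were higher and 36.4% lower, against 16.1% and 15.0%. HIST2H2AB had the highest of these H2A probes, with 1.54 and 1.5 in clone #3-1 and 0.24 and 0.28 in clone #4-7. Its second probe, which overlaps the first by 28 bases, gave 0.65 and 0.60, then -0.19 and -0.18. The 2 probes of this gene therefore shared the rise in clone #3-1, at unequal size, and had opposite signs in clone #4-7, where the first passed the threshold and the second did not.

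The 2 probes of HIST1H2AJ, 207 bases apart, gave close values. The first gave 1.28 and 1.30 in clone #3-1 and -0.03 and -0.01 in clone #4-7, and the second 1.28 and 1.25, then -0.10 and -0.06. HIST1H2AH gave 1.27 and 1.20, then -0.07 and -0.11. HIST1H2AK gave 1.17 and 1.1, then -0.12 and -0.05. These genes were far above 0 in clone #3-1 alone, by limma adjusted p between 1.3e-05 and 2.1e-05.

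HIST1H2AM was read by 2 probes 70 bases apart, at means of 1.25 and 0.66 in clone #3-1 and 0.07 and -0.22 in clone #4-7. HIST1H2AB and HIST1H2AG had means of 0.97 and 0.95 in clone #3-1 and of -0.08 and -0.06 in clone #4-7. HIST3H2A and both HIST2H2AC probes rose in clone #3-1, to 0.83, 0.84 and 0.59, and fell in clone #4-7, to -0.23, -0.32 and -0.39. HIST1H2AC was the other H2A gene that rose in both clones, with 0.59 and 0.33.

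HIST1H2AE and HIST1H2AD, whose genes lie among the others in the HIST1 cluster, stood lower. HIST1H2AE gave -0.16 and -0.08 in clone #3-1, short of the threshold, and -0.45 and -0.50 in clone #4-7, a fall (limma adjusted p = 2.2e-04). HIST1H2AD gave 0.21 on both arrays of clone #3-1 and -0.22 and -0.29 in clone #4-7, with the same order of the clones. HIST2H2AA3 fell in both. The probe that holds its stem-loop gave -1.46 and -1.53 in clone #3-1 and -0.94 and -0.96 in clone #4-7 (limma adjusted p of 1.2e-05 and 3.2e-05), and a probe 477 bases away gave -0.62 and -0.64, then -0.40 and -0.39.

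**Figure D2:**
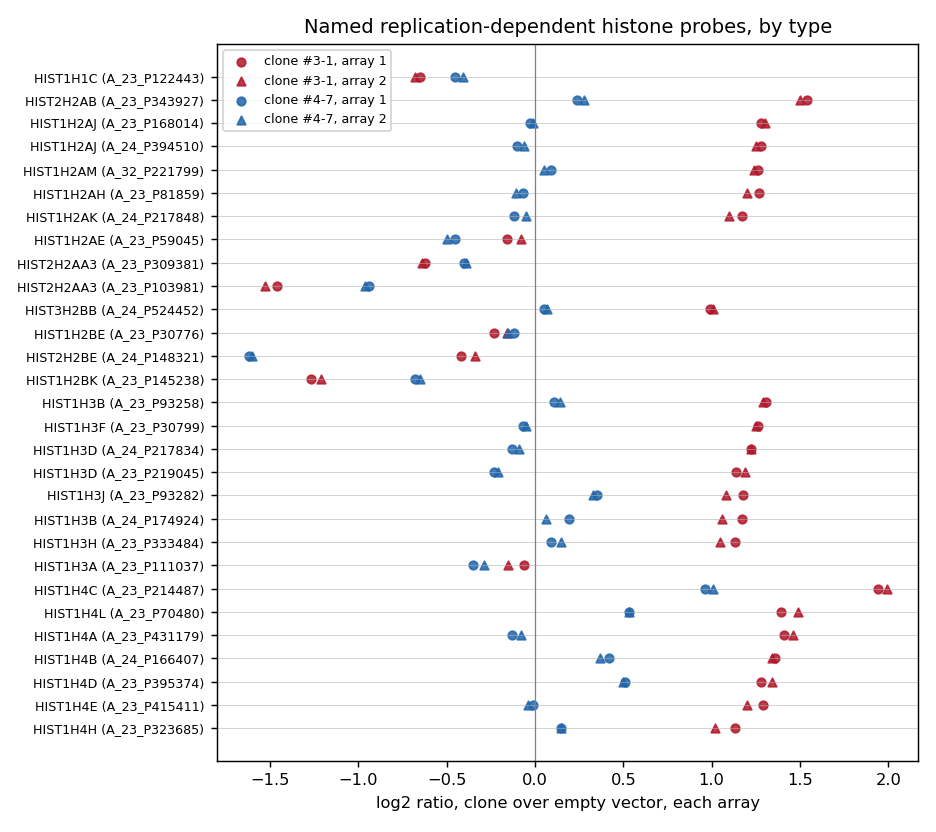
Rows are the replication-dependent probes named for their size or their difference between clones, grouped by type, and the x axis is the log2 ratio of clone over empty vector on each array (circles array 1, triangles array 2, red clone #3-1, blue clone #4-7). The array pairs of a clone lie close together, the H4 probes reach from 1.02 to 1.99 in clone #3-1, and HIST2H2AA3, HIST1H2BK, HIST1H1C and the far HIST2H2BE probe lie under 0 in both clones.

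H2B differed from the other core histones. Of its 17 probes on the strand of the gene that were well above background throughout, 1 rose in clone #3-1, 2 fell, and the other 14 missed the threshold, between -0.21 and 0.20. Their median was -0.07 in clone #3-1 and 0.01 in clone #4-7, where none rose and 2 fell. Of all probes well above background throughout, 24.1% rose and 23.8% fell in clone #3-1, and 23.6% rose and 21.9% fell in clone #4-7. HIST1H2BM, HIST1H2BO, HIST1H2BB and HIST1H2BN had means of -0.05, -0.06, 0.01 and 0.04 in clone #3-1. The 1 that rose was HIST1H2BJ, with 1.03 and 0.93 in clone #3-1 and 0.10 and 0.20 in clone #4-7 (limma adjusted p of 4.5e-05 and 0.03).

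For 2 H2B genes the array also holds a probe on the strand opposite to the gene, and both rose in clone #3-1 while the probe on the gene's own strand did not. The sequences are shown because they overlap the same stretch of H2B. Capitals mark the stretch of 11 bases that the 4 probes share, apart from its ninth base, and that appears reversed and complemented in the opposite-strand probes.
HIST1H2BJ (gene's strand): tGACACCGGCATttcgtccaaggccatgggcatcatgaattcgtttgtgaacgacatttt
HIST1H2BN (gene's strand): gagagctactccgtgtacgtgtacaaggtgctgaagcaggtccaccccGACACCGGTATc
HIST1H2BD (opposite strand): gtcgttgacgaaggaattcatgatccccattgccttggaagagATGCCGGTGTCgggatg
HIST3H2BB (opposite strand): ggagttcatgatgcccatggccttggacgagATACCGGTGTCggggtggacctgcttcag
In build hg17 these lie at chr6:27208297-27208356, chr6:27914524-27914583, chr6:26266524-26266583 and chr1:224952701-224952760. Each can be read in at least 1 frame without a stop codon.

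The opposite-strand HIST1H2BD probe gave 0.95 and 0.99 in clone #3-1 and -0.06 and -0.09 in clone #4-7, and the gene's own-strand probe, 71 bases away, gave -0.24 and -0.17, then 0.07 and 0.15. The opposite-strand HIST3H2BB probe gave 0.99 and 1.01, then 0.05 and 0.07, and its own-strand probe gave -0.08 and -0.14, then -0.01 and 0.08. In both genes the 2 strands did not overlap in clone #3-1. The reverse complement of the HIST3H2BB opposite-strand probe shares a run of 30 bases with the HIST1H2BN probe, which read 0.03 and 0.05 in clone #3-1, and a run of 26 bases with the HIST1H2BJ probe, which rose. Which transcript the opposite-strand probes read was not tested. Both HIST2H2AA3 probes and the HIST2H3PS2 probe also lie in hg17 on the strand opposite to that of the gene in GRCh38.p14. These genes have no probe on the other strand, and the builds differ. The stem-loop in the HIST2H2AA3 probe runs in the same direction as in the HIST1H4K probe, which lies on its gene's strand. That HIST2H2AA3 probe therefore has the sense of the message, and the other probe of the gene lies on the same hg17 strand. Which strand the HIST2H3PS2 probe reads was not settled.

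The 2 own-strand H2B probes that fell in clone #3-1 belong to genes with known polyadenylated messages. HIST1H2BK gave -1.27 and -1.21 in clone #3-1 and -0.68 and -0.65 in clone #4-7 (limma adjusted p of 1.5e-05 and 6.9e-05). HIST2H2BE was read by 3 probes. The one farthest along the gene, 1616 bases from the coding probe, gave -0.42 and -0.34 in clone #3-1 and -1.62 and -1.60 in clone #4-7 (limma adjusted p of 4.0e-04 and 1.3e-05). It was the lowest histone probe of clone #4-7, and the clones did not overlap.

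The nearest HIST2H2BE probe gave 0.20 on both arrays of clone #3-1 and 0.11 and 0.18 in clone #4-7, short of the threshold in both. The probe between them was not well above background in Cy5 in clone #4-7, where the empty vector signal was at least 1.35-fold higher (limma adjusted p = 4.4e-04; the bound sets the brighter channel against the lowest signal well above background or the dim signal itself, whichever is higher, and is open to dye bias). Along this gene the log2 ratios in clone #4-7 therefore ran from 0.15 to -1.61 with distance.

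H2B probes also share the most sequence with probes of other genes. The longest run shared with a probe of another histone gene had a median of 23 bases for H2B, 18 for H4, 14 for H3, 13 for H2A, 11 for H1 and 10 for the variants, and 12 of the 23 H2B probes shared 20 bases or more. The HIST1H2BN and HIST2H2BE coding probes share 41 bases and read 0.04 and 0.20 in clone #3-1. Messages of several genes of a type may bind 1 probe, and the part of this in the values was not tested.

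Many H2A and H2B genes lie head to head and share the stretch between their starts. By the RefSeq promoter table of GRCh38.p14, 10 pairs on the array have starts 194 to 248 bases apart on opposite strands, and in 9 of them both genes were well above background throughout on their own strand. In 6 of these 9 pairs the H2A gene had a probe that rose in clone #3-1 and the H2B gene had none. The 12 H2A probes had a median of 0.83 in clone #3-1, with 10 higher, and the 10 H2B probes a median of -0.01, with 1 higher and 1 lower. In clone #4-7 the medians were -0.15 and 0.04, with 6 of the H2A probes and 1 of the H2B probes lower. Of all probes well above background throughout, 24.1% rose and 23.8% fell in clone #3-1, and 21.9% fell in clone #4-7.

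In clone #3-1, HIST1H2AJ and HIST1H2BM lay farthest apart of the pairs. They read 1.29 (with 1.27 by the second probe) and -0.05 from starts 245 bases apart. The exception was HIST1H2AG with HIST1H2BJ, at 0.95 and 0.98, where both rose. HIST1H2AD with HIST1H2BF and HIST1H2AE with HIST1H2BG had no member that rose in clone #3-1.

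The stretch between HIST1H2AJ and HIST1H2BM is shown as the 250 bases before the start of HIST1H2BM, chr6:27814772-27815021 of GRCh38.p14 on the plus strand, since a pair with 1 shared stretch and unequal values carries the contrast. Capitals mark 3 motifs on either strand. The first is the box CCAAT. The second is the TATA box, searched as TATAAA. The third is the octamer, searched as ATTTGCAT.
HIST1H2BM: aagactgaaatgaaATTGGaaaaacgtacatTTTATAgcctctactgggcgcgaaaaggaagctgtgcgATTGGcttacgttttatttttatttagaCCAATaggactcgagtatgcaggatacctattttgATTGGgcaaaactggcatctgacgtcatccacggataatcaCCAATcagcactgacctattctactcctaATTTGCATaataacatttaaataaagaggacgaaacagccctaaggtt
The promoter table held 60 of the 65 replication-dependent genes and 12 of the 13 variant genes. In the 250 bases before the start, CCAAT was found in all 14 H2A, all 17 H2B, all 11 H3 and all 6 H1 promoters and in 3 of the 12 H4 promoters, against 33.0% of all 27305 promoters. The octamer was found in 11 of the 14 H2A and 13 of the 17 H2B promoters, against 1.66% of all, in 1 of the 11 H3 promoters and in none of the H4 promoters. TATAAA was found in 40 of the 60, against 11.1% of all. In the head-to-head pairs the 250 bases before both starts are largely the same DNA, and the motifs were searched on either strand. Similar shares in H2A and H2B promoters therefore follow largely from the choice of stretch, and a match is a description of the letters alone.

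The linker histones did not move together. HIST1H1E gave 0.51 and 0.52 in clone #3-1 and -0.51 and -0.50 in clone #4-7, past the threshold in opposite directions (limma adjusted p of 8.5e-05 and 1.0e-04). HIST1H1D gave 0.23 and 0.18, then -0.19 and -0.18, of which the rise in clone #3-1 passed the threshold. HIST1H1C, the other H1 gene well above background, fell in both, with -0.65 and -0.68, then -0.45 and -0.41 (limma adjusted p of 5.0e-05 and 2.0e-04). HIST1H1B and HIST1H1T were not well above background in any channel on any array, and HIST1H1A on 1 array in Cy5 alone.

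Probes that lie far from the coding part of a replication-dependent gene were mostly dim. HIST1H2AG, HIST1H2AK, HIST1H2BJ, HIST1H2BN, HIST1H3G and HIST4H4 each have a second probe on the same strand, between 1133 and 13849 bases from the first, and none of these second probes was well above background in both channels on all arrays or passed the threshold. Of the histone genes, 21 have several probes, and 0 had probes past the threshold in opposite directions within a clone. Testis genes HIST1H2AA and HIST1H2BA also gave no value past the threshold, and HIST1H2BA was not well above background in any channel.

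The clones themselves differed at 48 of the 83 replication-dependent probes, tested as the difference of their log2 ratios, with 46 higher in clone #3-1 (55.4%) and 2 lower. Over all probes, 11.0% were higher in clone #3-1 than in clone #4-7 and 11.6% were lower. The 2 lower probes were the HIST2H2AA3 stem-loop probe, by -0.54, and HIST1H2BK, by -0.58. The 6 probes with the largest differences among those well above background were HIST1H4A, both HIST1H3D probes, HIST1H2AJ, HIST1H2AH and HIST1H3F, between 1.32 and 1.53, with limma adjusted p between 4.6e-05 and 6.6e-05. Past the threshold upward in clone #3-1 and downward in clone #4-7 were HIST1H1E, one HIST1H2AM probe, both HIST2H2AC probes, HIST3H2A, one HIST1H3D probe and HIST1H4J.

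Among the variant histones, the genes for H2A.Z and the linker H1F0 rose in both clones. The probes of the H3.3 genes had smaller log2 ratios, with medians of 0.20 in clone #3-1 and -0.15 in clone #4-7. The 23 variant probes had a median of 0.26 in clone #3-1, with 13 higher (56.5%) and 1 lower (4.35%), and of 0.02 in clone #4-7, with 5 higher (21.7%) and 3 lower (13%). The shares over all probes are those given above. Of the 13 that rose in clone #3-1, 1 was at least 2-fold higher, against 21 of 46 among the replication-dependent probes. The clones differed at 11 of the 23, with 10 higher in clone #3-1 and 1 lower, and this count was 5 to 6 when any 1 array was left out.

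H2AFZ codes for H2A.Z, a variant placed at promoters and around transcription starts, and all 3 of its probes rose in both clones. They gave 1.08 and 0.96, 0.96 and 1.04, and 0.85 and 0.80 on the arrays of clone #3-1. In clone #4-7 they gave 0.53 and 0.62, 0.60 and 0.67, and 0.51 and 0.42. The clones did not overlap, with differences of 0.44, 0.37 and 0.36 (limma adjusted p between 0.0033 and 0.0035). H2AFV, the second gene for an H2A.Z protein, rose in both as well, with 0.64 and 0.74 in clone #3-1 and 0.89 and 0.93 in clone #4-7, and its difference of -0.22 did not pass the threshold (limma adjusted p = 0.022).

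H1F0, the linker histone known for its rise in cells that leave the cell cycle, gave 0.98 and 1.02 in clone #3-1 and 0.84 and 0.85 in clone #4-7 (limma adjusted p of 1.9e-05 and 3.4e-05). Its difference of 0.15 between the clones missed the threshold. H1FX, another linker variant, gave 0.36 and 0.37, then -0.22 and -0.18, past the threshold in opposite directions. H1FNT, a testis linker histone, gave 0.35 and 0.33, then -0.26 and -0.37, likewise opposite, and H1FOO, the oocyte linker histone, was not well above background in any channel.

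H2AFX codes for H2A.X, which is phosphorylated at DNA breaks. It gave 0.80 and 0.79 in clone #3-1 and -0.11 and 0.00 in clone #4-7, with a difference of 0.85 (limma adjusted p = 2.8e-04). The macroH2A genes H2AFY and H2AFY2 rose in clone #3-1, to 0.39 and 0.40, and missed the threshold in clone #4-7, at 0.19 and 0.11. H2AFB2 gave 0.27 and 0.02, then 0.10 and -0.05, and its arrays overlapped.

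H2AFJ was the variant that fell, by 1 of its 3 probes. A_23_P204277 gave -0.55 and -0.57 in clone #3-1 and 0.17 and 0.16 in clone #4-7, with a difference of -0.73 (limma adjusted p = 1.9e-04). A probe 188 bases from it gave -0.06 and -0.02, then -0.03 and -0.01, and the probe farthest from it was dim. The probes of this gene therefore did not give 1 value.

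H3F3A and H3F3B both code for H3.3, which is placed outside replication. Their 8 probes lay between 0.14 and 0.37 in clone #3-1, where 3 rose (37.5%), against 16.3% of all probes, and none fell. In clone #4-7 none rose and 1 fell (12.5%), against 15.0% of all probes. The 5 H3F3A probes had means between 0.14 and 0.26 in clone #3-1, of which 1 passed the threshold, and between -0.18 and -0.10 in clone #4-7, of which none did. The 3 H3F3B probes had means of 0.37, 0.24 and 0.14, of which the first 2 passed, and of 0.08, -0.27 and -0.05, of which the second was a fall (limma adjusted p = 9.3e-04). All 8 probes were higher in clone #3-1 than in clone #4-7, 4 of them past the threshold. Beside them, the replication-dependent H3 probes had a median of 0.74 in clone #3-1 and the H3.3 probes one of 0.20.

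**Figure D3:**
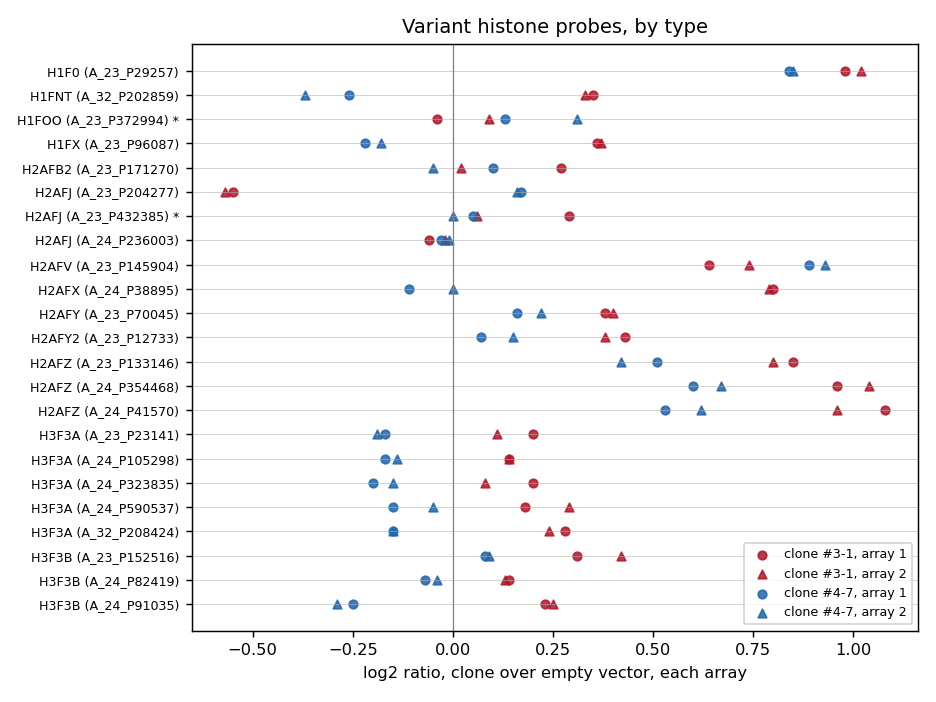
Rows are the 23 variant histone probes by type, and the x axis is the log2 ratio of clone over empty vector on each array (circles array 1, triangles array 2, red clone #3-1, blue clone #4-7); an asterisk marks a probe not well above background in both channels on all arrays. H2AFZ, H2AFV and H1F0 lie at 0.42 or above on all 4 arrays, and the H3F3A and H3F3B probes between -0.29 and 0.42.

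Genes that act with histones were taken as lists. Of 56 probes for genes of DNA replication and S phase, 50 rose in clone #3-1 and none fell, with a median of 0.77, and 36 rose and 2 fell in clone #4-7, with a median of 0.30. These are 89.3% higher in clone #3-1, where 16.3% of all probes were, and 64.3% higher and 3.57% lower in clone #4-7, against 16.1% and 15.0%. MCM10, a replication origin factor, gave 1.71 and 1.73 in clone #3-1 and 0.81 and 0.73 in clone #4-7. TYMS, which makes thymidylate, gave 1.21 and 1.24, then 0.83 and 0.84, and RFC3, a subunit of the clamp loader, 1.44 on both arrays, then 0.85 and 0.87. CCNA2, cyclin A2, gave 0.83 and 0.84, then 0.92 and 0.93, so that it was close in both clones. The origin factor ORC6L fell in clone #4-7, to -0.23. The share of cells in S phase was not read on these arrays, and its part in the histone values was not tested.

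Of 37 probes for genes of histone transcription and message 3′ end formation, 17 rose and 4 fell in clone #3-1, with a median of 0.22, and 10 rose and 4 fell in clone #4-7, with a median of 0.09. The shares were 45.9% higher and 10.8% lower in clone #3-1, against 16.3% and 16.4% of all probes, and 27.0% and 10.8% in clone #4-7, against 16.1% and 15.0%. THEX1, the exonuclease that trims the histone stem-loop end (now ERI1), fell in both clones by both probes, with means of -1.04 and -0.72 in clone #3-1 and -0.96 and -0.79 in clone #4-7. E2F1 rose in clone #3-1, at 0.92 and 0.90, and missed the threshold in clone #4-7, at 0.09 and 0.11. ZNF473, a zinc finger protein of histone message processing, rose to 0.69 in clone #3-1 and read 0.16 in clone #4-7. LSM11, a subunit of the U7 particle that guides the cut, read -0.07 in clone #3-1 and rose to 0.70 in clone #4-7. CSTF2 rose in both, to 0.72 and 0.63, and its paralog CSTF2T rose to 0.34 in clone #3-1 and fell to -0.55 in clone #4-7.

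Among histone chaperones, 17 of 46 probes rose and 6 fell in clone #3-1, with a median of 0.17, and 10 rose and 5 fell in clone #4-7, with a median of 0.02. That is 37.0% higher and 13.0% lower in clone #3-1 and 21.7% and 10.9% in clone #4-7, beside the same shares of all probes. CHAF1A, CHAF1B and ASF1B load H3 and H4 behind the replication fork. CHAF1A gave 1.28 and 1.33 in clone #3-1 and 0.53 and 0.61 in clone #4-7, ASF1B 1.11 and 1.09, then 0.41 and 0.36, and CHAF1B 0.93 and 0.94, then 0.41 on both arrays. DAXX, a chaperone of H3.3, was close in both clones, at 0.49 and 0.50, and its partner ATRX read -0.14 in clone #3-1 and fell to -0.37 in clone #4-7. NAP1L1 and one NPM1 probe fell in both, to -0.28 and -0.59 and to -0.42 and -0.22. CENPA, the centromere H3 that the name rule leaves out, rose to 0.77 and 0.42.

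Of 44 probes for histone acetylases and deacetylases, 15 rose and 6 fell in clone #3-1 and 11 rose and 9 fell in clone #4-7, with medians of 0.07 and 0.02. As shares, 34.1% were higher and 13.6% lower in clone #3-1, against 16.3% and 16.4% of all probes, and 25% and 20.5% in clone #4-7, against 16.1% and 15.0%. HDAC4 had the largest value, 1.56 and 1.57 on the arrays of clone #3-1 and 0.38 and 0.41 on those of clone #4-7 for its highest probe, and 3 further probes rose in clone #3-1 to means of 1.32, 0.55 and 0.57. HDAC10 fell in clone #3-1 by 2 probes, to -0.70 and -0.55, and the acetylase MYST4 fell in clone #4-7 by 3 probes, to -0.65, -0.65 and -0.66. HDAC6 gave values of opposite sign by 2 probes in both clones, -0.34 and 0.40 in clone #3-1 and -0.18 and 0.57 in clone #4-7.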

How the data were processed

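RNA of 2 HCT116 clones with N-BLR shRNA was compared with RNA of empty vector cells on 4 Agilent 2-colour arrays. The authors deposited mean spot and median background intensity for both channels, read by Agilent Feature Extraction (8.5.1.1 in the submitters' processing notes, 9.5.3.1 in the file headers), with processed intensities, their log10 ratios and flags, and a table of the same log10 ratios. Coordinates are of build hg17.

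In R 4.3.3 with limma 3.58.1, intensities were background corrected (normexp, offset 50), log2 transformed, normalized within arrays (loess) and then between them (quantiles), and averaged by probe, as the methods state in outline. Control and outlier spots (87 to 125 an array) got no weight. Over 41000 probes, 1 model held both clones as terms, and each clone's log2 ratio and their difference were tested with limma's moderated test, past the threshold at an unadjusted p under 0.001. Adjusted p are Benjamini-Hochberg values over 41000 probes. The number of arrays limits the precision. The fit was tested on simulated data.

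Named were all variants, the 8 highest and 8 lowest replication-dependent probes, the 6 that differ most between clones, those at least 2-fold changed and up to 3 probes per gene list, direction and clone. Other members are named where a group is described, chosen after their values were seen. Members and lists were chosen with earlier results of these data known. The 15 alternatives tried changed background correction, normalization, filter, test, the arrays included and the replicate block. Some results are not reported here.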

Additional observations from a re-analysis of the deposited data

Results flagged for a closer look

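The difference between the clones, as the log2 ratio of clone #3-1 minus that of clone #4-7, passed the limma threshold for 59 histone probes. Of the 106 histone probes, 52.8% were higher in clone #3-1 and 2.83% lower, against 11.0% and 11.6% of all probes. Among H1 genes it was 0.39 for HIST1H1D, 1.02 for HIST1H1E, 0.56 for H1FX and 0.66 for H1FNT.

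For H2A it was 1.05 for HIST1H2AB, 0.47 for HIST1H2AD, 0.36 for HIST1H2AE, 1.01 for HIST1H2AG, 1.32 for HIST1H2AH, 1.31 and 1.35 for HIST1H2AJ, 1.22 for HIST1H2AK, 0.88 and 1.18 for HIST1H2AM, 1.25 and 0.81 for HIST2H2AB, 1.15 and 0.98 for HIST2H2AC and 1.06 for HIST3H2A. It was -0.54 for HIST2H2AA3. Among H2A variants it was 0.85 for H2AFX, 0.36, 0.37 and 0.44 for H2AFZ and -0.73 for H2AFJ.

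For H2B it was 0.83 for HIST1H2BJ, 1.05 and 0.95 for the opposite-strand probes of HIST1H2BD and HIST3H2BB, 1.23 for the far HIST2H2BE probe and -0.58 for HIST1H2BK. No other H2B probe passed.

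For H3 it was 1.18 and 0.99 for HIST1H3B, 0.32 for HIST1H3C, 1.38 and 1.33 for HIST1H3D, 0.81 for HIST1H3E, 1.32 for HIST1H3F, 0.80 for HIST1H3G, 0.97 for HIST1H3H, 0.79 for HIST1H3J, 0.54 and 0.55 for HIST2H3A and 0.58 for HIST2H3PS2. For H3.3 it was 0.33, 0.30 and 0.41 for H3F3A and 0.51 for H3F3B.

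For H4 it was 1.53 for HIST1H4A, 0.96 for HIST1H4B, 0.98 for HIST1H4C, 0.81 for HIST1H4D, 1.27 for HIST1H4E, 0.90 for HIST1H4F, 0.92 for HIST1H4H, 0.85 for HIST1H4I, 1.07 for HIST1H4J, 0.72 for HIST1H4K, 0.91 for HIST1H4L and 0.87 for HIST2H4A. Of the 59, 10 had clone values past the threshold in opposite directions, and the share of all probes that did so is not given here.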

How the results depend on the processing

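Under the 15 alternatives, the counts of replication-dependent probes higher in clone #3-1 (46) and different between the clones (48) stayed within 1.5 times. Counts of small log2 ratios moved more. Replication-dependent probes higher in clone #4-7 (8) numbered 4 with an offset of 0, 3 with plain subtraction, 2 with Feature Extraction's processed signals, 3 with the authors' table and 19 with an intensity trend or an adjusted p under 0.05. Those lower in clone #4-7 (16) numbered 10, 8 and 10 with the first 3 of these, and those lower in clone #3-1 (5) numbered 12 with the trend and 14 with the adjusted p. Variant probes past the threshold (14 and 8) numbered 8 in clone #3-1 with plain subtraction and, in clone #4-7, 4 with an offset of 0, 3 with plain subtraction, 15 with the trend and 16 with the adjusted p. Variant probes that differed between the clones (11) numbered 5 with an offset of 0, 4 with plain subtraction, 5 with processed signals or the authors' table and 19 with the trend or the adjusted p. The cause was not tested.

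The median of replication-dependent probes in clone #3-1 (0.51) was 0.60 with an offset of 0, 0.61 with plain subtraction, 0.64 with processed signals or the authors' table, 0.52 without normalization between arrays and 0.66 over probes well above background. In clone #4-7 (-0.02) it was -0.06 with processed signals and -0.05 without normalization between arrays. The median of variants in clone #3-1 (0.26) was 0.37 with an offset of 0 or plain subtraction, 0.39 with processed signals or the authors' table, 0.27 with median centring, 0.24 without normalization between arrays and 0.34 over probes well above background, and in clone #4-7 (0.02) it was -0.02 over probes well above background. By type, the H2B median in clone #3-1 lay between -0.07 and -0.03 and that of H4 between 0.93 and 1.11 in the alternatives that move log2 ratios.

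Leaving out each array in turn, with the lone array of a clone assumed to vary like the other clone, gave 42 to 45 replication-dependent probes higher and 4 to 5 lower in clone #3-1 and 4 to 7 higher and 7 to 12 lower in clone #4-7. It gave 10 to 12 variant probes in clone #3-1 and 5 to 6 in clone #4-7. For the difference it gave 44 to 45 replication-dependent and 5 to 6 variant probes. The medians ranged from 0.51 to 0.52 and from -0.02 to -0.01 for replication-dependent probes and from 0.26 to 0.29 and from 0 to 0.05 for variants. The counts that fell by over 1.5 times did so without either array of clone #4-7 for replication-dependent probes in that clone, without array 2 for its variants and without any array for the variant difference.

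With a replicate block the counts were 45, 5, 7 and 12 for replication-dependent probes higher and lower in clone #3-1 and clone #4-7, 13 and 7 for variants, and 46 and 8 for the difference, and the medians were 0.51, -0.02, 0.26 and 0.02. The deviations of arrays with the same number correlated at -0.0132 across probes, so the arrays share only a number. For single named probes, 4218 values were recomputed. Of these 3777 kept their side of the threshold, 320 were no longer past it, 121 were newly past it and 0 past it changed sign; 21 that missed it in both fits changed sign.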

Other observations

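Outside the histones, some markers of other cell types were read on the arrays. COL1A1, the fibroblast collagen, fell to -0.59 in clone #3-1 and to -1.13 in clone #4-7, and the 3 COL3A1 probes and PDGFRB were not well above background on any array.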
